A study of Homo sapiens with 24 samples.

Results

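TXNIP, ARRDC4, ARRDC3 and ARRDC2, which encode arrestin-domain proteins, and MLXIP and MLX, which encode MondoA and its partner, were followed in acute myeloid leukemia (AML) cells treated with adenosine analogs. The 6 genes were taken by their symbols from a count table of 23354 genes, and were chosen with earlier results of these data known. Their places among all genes, given below, are therefore a description and no independent support. RNA came from MV4-11 and from KG-1a, both established cell lines of human AML. Cells of each line were left untreated, treated with 1 μM 8-chloro-adenosine (8CA) or treated with 1 μM 8-amino-adenosine (8AA), and were taken at 8 h or 24 h. Both compounds are adenosine with a substituent on the base, a chlorine atom in 8CA and an amino group in 8AA. Each of the 12 groups had 2 libraries, A and B, 24 in all. All groups were grown in Iscove's medium with fetal bovine serum, and the labels call every line wild type and name no vehicle for the untreated cells.

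TXNIP binds thioredoxin and limits glucose uptake, and the other alpha-arrestins work as adaptors that bring ubiquitin ligases of the NEDD4 family to membrane proteins. MondoA is held in the cytoplasm until glucose-6-phosphate builds up, then enters the nucleus with MLX and binds carbohydrate response elements, pairs of E-box-like CACGNG motifs. TXNIP and ARRDC4 are the best known targets of MondoA, and TXNIP RNA is short-lived and is also known to move with adenine nucleotide levels and with growth factor signalling.

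All 6 members had a promoter in the RefSeq table used here (build GRCh38.p14), which gave 9 start sites for them. The 250 bases before the first listed start site are shown for TXNIP and ARRDC4, the known targets, for MLX, the partner of MondoA, and for ARRDC3, as a member with neither motif in this window. Capitals mark CACGAG in TXNIP and CACGTG in ARRDC4 and MLX. The TXNIP stretch is on the minus strand at chr1:145996580-145996829, that of ARRDC4 on the plus strand at chr15:97960453-97960702, that of MLX on the plus strand at chr17:42566850-42567099 and that of ARRDC3 on the minus strand at chr5:91383318-91383567.
TXNIP: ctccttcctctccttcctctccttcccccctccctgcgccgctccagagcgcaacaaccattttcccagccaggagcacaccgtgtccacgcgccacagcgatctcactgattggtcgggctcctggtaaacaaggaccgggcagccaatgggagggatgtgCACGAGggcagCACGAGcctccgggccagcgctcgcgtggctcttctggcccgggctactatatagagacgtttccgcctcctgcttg
ARRDC4: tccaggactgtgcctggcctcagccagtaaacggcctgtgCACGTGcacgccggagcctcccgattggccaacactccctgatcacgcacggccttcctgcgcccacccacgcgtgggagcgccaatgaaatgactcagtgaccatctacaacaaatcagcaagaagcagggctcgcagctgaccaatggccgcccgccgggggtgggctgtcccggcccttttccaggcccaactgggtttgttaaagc
MLX: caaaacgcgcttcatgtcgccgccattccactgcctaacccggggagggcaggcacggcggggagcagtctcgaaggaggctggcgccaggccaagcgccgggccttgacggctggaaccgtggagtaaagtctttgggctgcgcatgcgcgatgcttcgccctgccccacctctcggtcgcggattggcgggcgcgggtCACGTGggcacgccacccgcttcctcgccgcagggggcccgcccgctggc
ARRDC3: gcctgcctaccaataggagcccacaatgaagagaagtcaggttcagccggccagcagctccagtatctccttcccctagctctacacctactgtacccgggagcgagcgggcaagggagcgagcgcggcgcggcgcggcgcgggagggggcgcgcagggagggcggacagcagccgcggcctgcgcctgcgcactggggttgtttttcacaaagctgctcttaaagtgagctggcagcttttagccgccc

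In TXNIP, CACGAG stood at bases 88 to 83 and 77 to 72 before the start, on the plus strand of the gene and 5 bases apart. A pair of CACGNG motifs with this spacing, searched on both strands, was in 16 of 35116 promoter windows of the same length (0.0456%), and among the members only in TXNIP. CACGTG stood at bases 210 to 205 before the start of ARRDC4 and at 50 to 45 before that of MLX, and 6.34% of all windows held this palindrome. CACGAG was in 5.58% of windows on either strand, and neither it nor CACGTG was in the windows of ARRDC3, ARRDC2 or MLXIP. Single CACGCG and CACGGG motifs, the other forms of CACGNG, were neither counted nor marked. Both are in the first listed window of ARRDC2, CACGGG is in the second of ARRDC3, and CACGCG is in the stretches of TXNIP and ARRDC4. CCAAT, which 32.0% of windows held on either strand, was found in all 6 members, 3 times in ARRDC4, 2 times in TXNIP and 1 time each in MLX, MLXIP, ARRDC3 and, at the second listed start site, ARRDC2.

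The total count per library was 18633963 to 24520078, with a median of 21402883. Replicates differed by more than counting noise in every group. Their chi-square per degree of freedom was 1.43 to 5.20 in 11 groups and 12.3 in KG-1a after 8AA at 24 h, which stood apart, so the members' log2 fold changes in that group, and the list counts, are also given without each of its libraries. There 51.8% of all genes were called, and 54.2% and 51.5% without library A and B. Nothing in the labels says that A and B were separate cultures, so the p-values measure only the spread between these libraries. MV4-11 libraries had the myeloid markers LYZ and CD33 and the leukemic receptor FLT3. In KG-1a these 3 markers were near 0 (at most 1.33 CPM, counts scaled to library size) in every library, and CD34 and CD7 were present. SPI1, MPO and MEIS1 were also higher in MV4-11, with medians of 258, 11.4 and 97.0 CPM against 6.49, 0.395 and 0 in KG-1a. HOXA9 and PTPRC went the other way, at 7.90 and 114 in MV4-11 against 26.3 and 741 in KG-1a. SPN was present in both, at 974 and 625. Of the markers of other cell types, the T cell genes CD3D (174 to 264 CPM) and CD3E (22.2 to 78.3) were present in KG-1a, and were at 0 in MV4-11. The sum of these other markers in KG-1a was 206 to 215 after 8CA at 24 h and 258 to 335 in the other groups, and its part in the results was not tested. In bulk RNA, fewer cells of a kind and less RNA per cell cannot be told apart.

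Levels are given as CPM, scaled by TMM, within a gene, and as CPM per kilobase of exon (RPKM) between genes. In untreated MV4-11 at 8 h, the mean RPKM was 53.1 for TXNIP, 35.3 for MLX, 24.5 for ARRDC2, 15.8 for MLXIP, 3.84 for ARRDC4 and 0.574 for ARRDC3. No neighbours in that order overlapped between libraries. In untreated KG-1a at 8 h, MLX led at 28.5 RPKM. MLXIP (18.7 and 17.3) and TXNIP (17.2 and 17.8) followed and overlapped, as did ARRDC3 (3.24 and 4.03) and ARRDC4 (2.78 and 3.24) at the end of the order, after ARRDC2 at 6.09. With either drug at either time, TXNIP had the highest RPKM of the members in KG-1a too, for example 32.0 against 25.2 for MLX after 8CA at 8 h. After 24 h of 8AA, TXNIP in KG-1a was at 63.0 and 60.3 RPKM, which overlapped the 59.5 and 61.3 of untreated MV4-11 at that time.

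The untreated lines differed for most members, as they did for most genes tested. Counts were compared with edgeR's quasi-likelihood test, two-sided, p-values were adjusted over every tested gene (Benjamini-Hochberg), and a gene is called where its adjusted p is under 0.05. All 6 members were called between untreated MV4-11 and KG-1a at 8 h and 4 at 24 h, where 82.2% and 81.8% of all genes were called. TXNIP was higher in MV4-11 by 1.60 ± 0.053 at 8 h and 1.66 ± 0.052 at 24 h on the log2 scale (fold change ± SE, as below). ARRDC2 was higher in MV4-11 by 2.01 ± 0.065 and 1.72 ± 0.065, and MLX by 0.31 ± 0.057 and 0.40 ± 0.057. ARRDC3 was lower in MV4-11, by -2.67 ± 0.14 and -2.30 ± 0.14. ARRDC4 (0.35 ± 0.10) and MLXIP (-0.18 ± 0.063) were called at 8 h and not at 24 h. The ARRDC4 call was lost without KG-1a untreated A (0.25, adjusted p = 0.0736). That of MLXIP was lost without MV4-11 untreated A (-0.092, adjusted p = 0.237) or KG-1a untreated A (-0.12, adjusted p = 0.134), and also with upper-quartile scaling (adjusted p = 0.102), with no filter (0.0943), with at least 10 counts in every library (0.0842) and in DESeq2 (0.0543).

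Between untreated cells of 24 h and 8 h, 2 members were called in MV4-11 (6.44% of all genes). In KG-1a 0 of 6 were called by edgeR (4.74%) and 0 by DESeq2. There 1 member, TXNIP, had an unadjusted p under 0.05 in edgeR (0.013). In MV4-11 TXNIP was higher at 24 h by 0.19 ± 0.050 (adjusted p = 0.0281) and ARRDC2 was lower by -0.26 ± 0.053 (adjusted p = 0.00505), while ARRDC4 was at -0.31 ± 0.098 (adjusted p = 0.0642). The TXNIP call was lost without untreated B of 8 h (0.14, adjusted p = 0.221) or untreated A or B of 24 h (0.20, adjusted p = 0.108, and 0.16, adjusted p = 0.211), and that of ARRDC2 without untreated B of 24 h (-0.24, adjusted p = 0.0787).

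**Figure D1:**
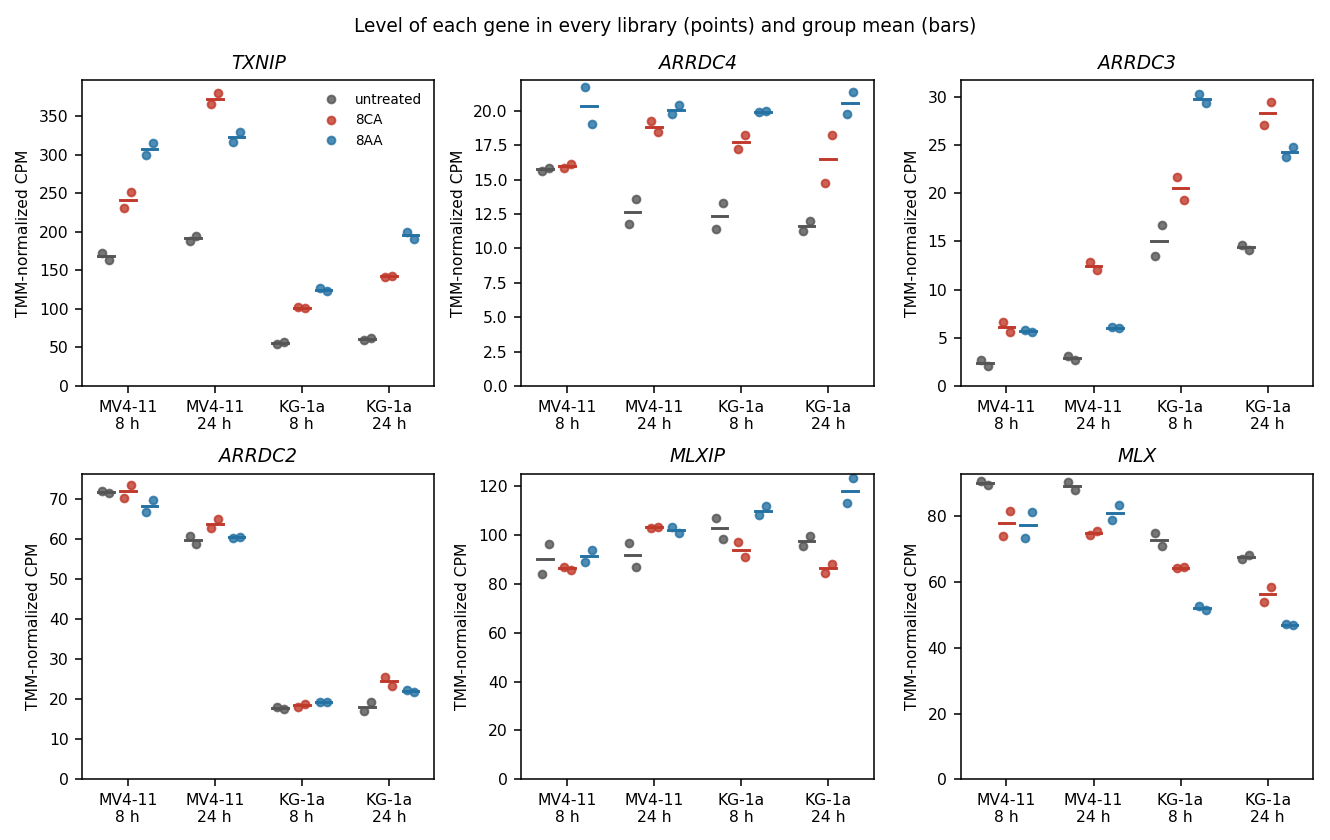
TMM-normalized CPM of each member (y axes, each from 0) in every library (points) with the group mean (bars), by cell line and time (x axis) and treatment (color). TXNIP and ARRDC3 were above the untreated libraries of their line and time in every treated library, and every treated library was below them for MLX.

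Treated cells were compared with untreated cells of the same line and time. TXNIP and ARRDC3 rose in all 8 comparisons, ARRDC4 rose in 7, and MLX fell in 7. ARRDC2 was called in KG-1a at 24 h and in neither drug's comparison at 8 h or in MV4-11, and MLXIP moved in opposite directions with the 2 drugs there. In MV4-11, 3 of 6 members were called after 8CA at 8 h (11.2% of all genes were called), 4 after 8AA at 8 h (29.5%), 4 after 8CA at 24 h (44%) and 4 after 8AA at 24 h (29.8%). In KG-1a, 3 were called after 8CA at 8 h (1.05%), 4 after 8AA at 8 h (34.7%), 6 after 8CA at 24 h (47.5%) and 6 after 8AA at 24 h (51.8%). The drugs of a line and time share the untreated libraries, so these comparisons are not independent. In KG-1a after 8CA at 8 h only 134 of 12711 genes were called, and TXNIP, ARRDC4 and ARRDC3 were at places 5, 85 and 109 by p. With any 1 of the 4 libraries of that comparison left out, 29 to 36 genes were called.

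TXNIP was at 173 and 163 CPM in the untreated MV4-11 libraries at 8 h, at 231 and 252 after 8CA and at 299 and 315 after 8AA. At 24 h in MV4-11 it was at 188 and 194 untreated, 365 and 380.0 after 8CA, and 316 and 329 after 8AA. The groups did not overlap at either time, and the order of the drugs changed between the times. In KG-1a at 8 h TXNIP was at 54.6 and 56.3 CPM untreated, 102 and 101 after 8CA, and 127 and 122 after 8AA. At 24 h in KG-1a it was at 59.5 and 61.9 untreated, 141 and 143 after 8CA, and 199 and 191 after 8AA. Here 8AA gave the higher level at both times, and again no groups overlapped.

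In MV4-11 the log2 fold change of TXNIP was 0.51 ± 0.049 after 8CA and 0.84 ± 0.049 after 8AA at 8 h, and 0.94 ± 0.049 and 0.73 ± 0.049 at 24 h. In KG-1a it was 0.87 ± 0.050 after 8CA and 1.18 ± 0.049 after 8AA at 8 h, and 1.23 ± 0.049 and 1.69 ± 0.049 at 24 h. The folds ranged from 1.43 to 3.22, and the largest adjusted p in edgeR over the 8 comparisons was 2.87e-06. By p, TXNIP was at place 7, 4, 15 and 9 of 12800 genes in MV4-11 and at place 5, 4, 17 and 1 of 12711 genes in KG-1a, in that order of drugs and times. By the size of the rise, 0.669% to 3.86% of genes stood ahead of it. Without library A of KG-1a after 8AA at 24 h the log2 fold change of TXNIP there was 1.65, and without B it was 1.72. TXNIP was called under all 13 alternatives tried for each comparison, with a largest adjusted p of 0.000496. The table's spans of 8 other genes also cover TXNIP, with 1 to 4059 counts over all libraries against 98455 for TXNIP, and the counting rule for shared positions is not given in the sources used here.

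**Figure D2:**
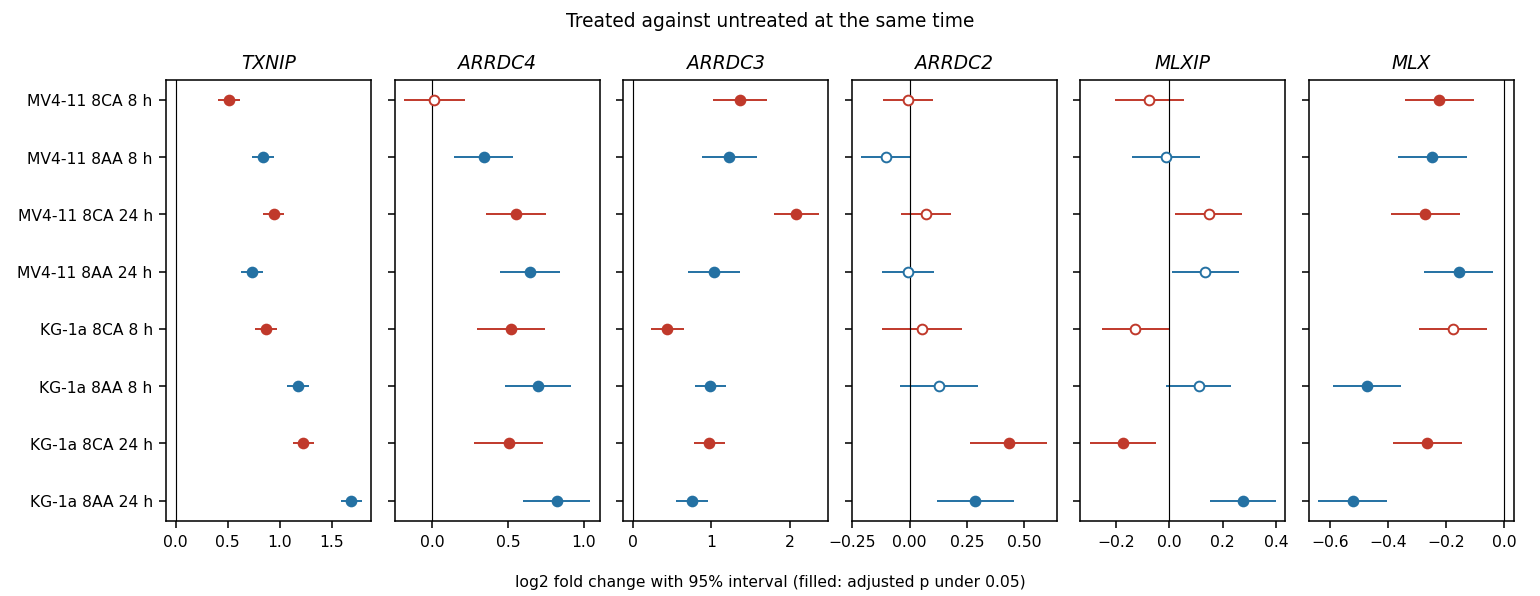
log2 fold change of each member (x axes, which differ in range between panels) against untreated cells of the same line and time, with 95% intervals, for 8CA (red) and 8AA (blue). Filled points have an adjusted p under 0.05. The intervals of TXNIP and ARRDC3 lie above 0 in all 8 comparisons and those of MLX below 0.

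ARRDC4, a close relative of TXNIP and like it a MondoA target, was at 15.7 and 15.8 CPM in untreated MV4-11 at 8 h, 15.9 and 16.2 after 8CA and 21.7 and 19.1 after 8AA. At 24 h in MV4-11 it was at 11.8 and 13.6 untreated, 19.3 and 18.5 after 8CA, and 19.8 and 20.4 after 8AA. In KG-1a at 8 h it was at 11.4 and 13.3 untreated, 17.2 and 18.3 after 8CA, and 19.95 and 19.97 after 8AA. The treated libraries lay above their untreated ones, by little in MV4-11 after 8CA at 8 h. At 24 h in KG-1a the levels were 11.28 and 12.003 untreated, 14.8 and 18.2 after 8CA, and 19.8 and 21.4 after 8AA. The log2 fold change in MV4-11 was 0.01 ± 0.096 after 8CA at 8 h (adjusted p = 0.955 in edgeR, 95% interval -0.19 to 0.21). It was 0.34 ± 0.093 after 8AA at 8 h, 0.55 ± 0.095 after 8CA at 24 h and 0.64 ± 0.095 after 8AA at 24 h. In KG-1a it was 0.52 ± 0.11 and 0.70 ± 0.10 at 8 h and 0.50 ± 0.11 and 0.82 ± 0.10 at 24 h after 8CA and 8AA. ARRDC4 in MV4-11 after 8AA at 8 h was no longer called without untreated library A (0.33, adjusted p = 0.0513) or without 8AA library A (0.24, adjusted p = 0.118). In KG-1a after 8AA at 24 h it was at 0.87 or 0.765 without 8AA library A or B. Its call in KG-1a after 8CA at 8 h was lost with any 1 of the 4 libraries left out, at 0.43 to 0.63 and adjusted p = 0.0716 to 0.278.

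ARRDC3, which brings NEDD4-family ligases to the beta2-adrenergic receptor and to integrin beta-4, was hardly expressed in untreated MV4-11, with 44 to 64 counts per library. It was at 2.68 and 2.09 CPM untreated at 8 h, 6.65 and 5.63 after 8CA and 5.84 and 5.58 after 8AA. At 24 h it was at 3.09 and 2.74 untreated, 12.9 and 12.1 after 8CA, and 6.07 and 6.04 after 8AA. The level after 8CA at 24 h stood above that of every other MV4-11 group. The log2 fold changes in MV4-11 were 1.36 ± 0.17 after 8CA and 1.23 ± 0.17 after 8AA at 8 h, and 2.08 ± 0.14 and 1.04 ± 0.16 at 24 h. A fold of 4.23 after 8CA at 24 h put ARRDC3 at place 12 of 12800 genes by the size of its rise.

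In KG-1a ARRDC3 was at 13.4 and 16.7 CPM untreated, 21.7 and 19.3 after 8CA and 30.3 and 29.3 after 8AA at 8 h. At 24 h it was at 14.6 and 14.1 untreated, 27.1 and 29.5 after 8CA, and 23.7 and 24.8 after 8AA. The order of the drugs changed between the times, in the same sense as that of TXNIP in MV4-11. The log2 fold changes were 0.44 ± 0.099 and 0.99 ± 0.093 at 8 h and 0.98 ± 0.095 and 0.75 ± 0.096 at 24 h after 8CA and 8AA, and without 8AA library A or B of 24 h the last was 0.78 or 0.72. The call after 8CA at 8 h (adjusted p = 0.0414 in edgeR) was lost for ARRDC3 without untreated library A (0.305, adjusted p = 0.357), without 8CA library A (0.36, adjusted p = 0.401) and without 8CA library B (0.52, adjusted p = 0.103). The antisense gene ARRDC3-AS1 shares 2986 bases of its span with ARRDC3 and had 4 to 30 counts per library, against 44 to 708 for ARRDC3. In MV4-11 it had 8 to 17 counts in untreated and 19 to 30 in treated libraries. Whether the counting used strand is not given in the sources used here, and reads of this pair may have been shared.

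ARRDC2, a less studied alpha-arrestin, lay between 58.9 and 73.5 CPM in all 12 MV4-11 libraries and was called there in none of the 4 comparisons, with log2 fold changes of -0.10 to 0.07. In KG-1a at 8 h it lay between 17.6 and 19.4 CPM in all 6 libraries. At 24 h it was at 17.2 and 19.2 CPM untreated, 25.5 and 23.4 after 8CA and 22.4 and 21.9 after 8AA, and the treated libraries were above the untreated ones. These log2 fold changes were 0.43 ± 0.080 after 8CA (adjusted p = 0.000286 in edgeR) and 0.29 ± 0.080 after 8AA (adjusted p = 0.0063). The ARRDC2 call after 8AA was lost without untreated library A (0.19, adjusted p = 0.128) and held without each 8AA library (0.27 and 0.30).

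MLXIP, which encodes MondoA itself, was at 95.6 and 99.5 CPM in untreated KG-1a at 24 h, 84.6 and 88.3 after 8CA and 113 and 123 after 8AA. The 3 groups did not overlap, and lay below the untreated level after 8CA and above it after 8AA. The log2 fold change was -0.17 ± 0.059 after 8CA (adjusted p = 0.0234 in edgeR) and 0.28 ± 0.058 after 8AA (adjusted p = 0.000746), and without 8AA library A or B the latter was 0.33 or 0.21 and still called. The MLXIP call after 8CA was lost without untreated library B (-0.15, adjusted p = 0.148) or 8CA library A (-0.14, adjusted p = 0.153), and with library size only (adjusted p = 0.0569) or upper-quartile scaling (adjusted p = 0.0706). At 8 h in KG-1a MLXIP was at -0.13 ± 0.059 after 8CA (adjusted p = 0.373) and 0.11 ± 0.058 after 8AA (adjusted p = 0.155). In MV4-11 no MLXIP comparison was called. The nearest was 8CA at 24 h, at 0.15 ± 0.060 with an adjusted p of 0.0513, where 9 of 13 alternatives called a rise, 1 of them with the replicate letter as a block (adjusted p = 0.0366).

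MLX, the partner that MondoA needs to bind DNA, was at 90.8 and 89.7 CPM in untreated MV4-11 at 8 h, 74.1 and 81.6 after 8CA and 73.5 and 81.4 after 8AA. At 24 h it was at 90.5 and 87.9 untreated, 74.2 and 75.6 after 8CA and 78.9 and 83.4 after 8AA. All 8 treated MV4-11 libraries were below all 4 untreated ones. In KG-1a MLX was at 74.8 and 70.8 CPM untreated, 64.3 and 64.5 after 8CA and 52.7 and 51.4 after 8AA at 8 h. At 24 h it was at 67.1 and 68.3 untreated, 54.1 and 58.4 after 8CA and 47.4 and 46.8 after 8AA, so that the treated libraries were again below the untreated ones, and those after 8AA lowest.

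The log2 fold change of MLX in MV4-11 was -0.22 ± 0.057 after 8CA and -0.25 ± 0.057 after 8AA at 8 h, and -0.27 ± 0.057 and -0.16 ± 0.057 at 24 h. In KG-1a it was -0.18 ± 0.055 after 8CA at 8 h, the comparison that was not called (adjusted p = 0.159 in edgeR). It was -0.47 ± 0.056 after 8AA at 8 h, -0.27 ± 0.056 after 8CA at 24 h and -0.52 ± 0.057 after 8AA at 24 h, and -0.53 or -0.51 there without 8AA library A or B. The MLX call in MV4-11 after 8CA at 8 h was lost without untreated library A (-0.22, adjusted p = 0.0745) or 8CA library A (-0.17, adjusted p = 0.132), and in a fit of the 6 libraries of the time point (adjusted p = 0.0511). That after 8AA at 24 h (adjusted p = 0.042) was lost under 9 of 13 alternatives. Among these were leaving out untreated library A (-0.14, adjusted p = 0.174), untreated library B (-0.19, adjusted p = 0.0729) or 8AA library A (-0.13, adjusted p = 0.196). MLX shares 894 bases of its span with PSMC3IP on the opposite strand, which had 10090 counts over all libraries against 36112 for MLX.

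The 2 analogs were set against each other at the same dose and time, in 4 pairs of groups. TXNIP was higher after 8AA than after 8CA in 3 pairs and lower in MV4-11 at 24 h. Of the 6 members, 2 were called in MV4-11 at 8 h (7.45% of all genes), 2 in MV4-11 at 24 h (21.8%), 4 in KG-1a at 8 h (30.6%) and 5 in KG-1a at 24 h (42%). The 8AA minus 8CA difference of TXNIP was 0.33 ± 0.048 in MV4-11 at 8 h (adjusted p = 0.000278 in edgeR) and -0.21 ± 0.048 at 24 h (adjusted p = 0.00359). In KG-1a it was 0.31 ± 0.047 at 8 h (adjusted p = 0.000116) and 0.46 ± 0.045 at 24 h (adjusted p = 6.03e-07), and 0.43 or 0.49 there without 8AA library A or B. TXNIP kept these 4 calls under every alternative tried.

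ARRDC3 differed most between the drugs in MV4-11 at 24 h, where it was lower after 8AA by -1.04 ± 0.12 (adjusted p = 3.24e-06 in edgeR). At 8 h in MV4-11 its difference was -0.13 (95% interval -0.42 to 0.16). In KG-1a ARRDC3 was higher after 8AA at 8 h by 0.55 ± 0.089 (adjusted p = 0.000214) and lower at 24 h by -0.22 ± 0.087 (adjusted p = 0.0488). The latter was lost under 8 of 13 alternatives, among them without 8CA library A (-0.29, adjusted p = 0.0586), without 8CA library B (-0.16, adjusted p = 0.29) and without 8AA library A (-0.19, adjusted p = 0.102). ARRDC4 was higher after 8AA in MV4-11 at 8 h by 0.33 ± 0.092 (adjusted p = 0.0352), a call lost without 8CA library A (0.32, adjusted p = 0.15), 8CA library B (0.34, adjusted p = 0.122) or 8AA library A (0.22, adjusted p = 0.286), in DESeq2 (adjusted p = 0.141) and in a fit of the 6 libraries of the time point (adjusted p = 0.0789). In KG-1a at 24 h ARRDC4 was higher after 8AA by 0.32 ± 0.098 (adjusted p = 0.0153), and 0.17 (adjusted p = 0.256) without 8CA library A, and it held without either 8AA library there (0.37 and 0.26). Its other differences had 95% intervals of -0.09 to 0.28 in MV4-11 at 24 h and -0.03 to 0.39 in KG-1a at 8 h.

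Between the drugs MLXIP and MLX were called in KG-1a and not in MV4-11, and whether the lines differ in this was not tested. In KG-1a MLXIP was higher after 8AA than after 8CA by 0.24 ± 0.058 at 8 h (adjusted p = 0.00549 in edgeR) and 0.45 ± 0.058 at 24 h (adjusted p = 1.21e-05), while MLX was lower after 8AA by -0.30 ± 0.056 (adjusted p = 0.000756) and -0.26 ± 0.057 (adjusted p = 0.00169). The calls of both genes at 24 h held without either 8AA library, at 0.51 and 0.39 for MLXIP and -0.27 and -0.25 for MLX. The MLXIP call at 8 h was lost without 8CA library B (0.19, adjusted p = 0.0868) or 8AA library B (0.21, adjusted p = 0.0605). In MV4-11 the intervals of MLXIP were -0.06 to 0.19 at 8 h and -0.14 to 0.11 at 24 h, and those of MLX were -0.14 to 0.10 and -0.00434 to 0.23. ARRDC2 was called in none of the 4 pairs, with differences of -0.15 to 0.07. Its intervals ran from -0.20 to 0.02 and from -0.19 to 0.03 in MV4-11, and from -0.09 to 0.24 and from -0.31 to 0.02 in KG-1a, at 8 h and 24 h.

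**Figure D3:**
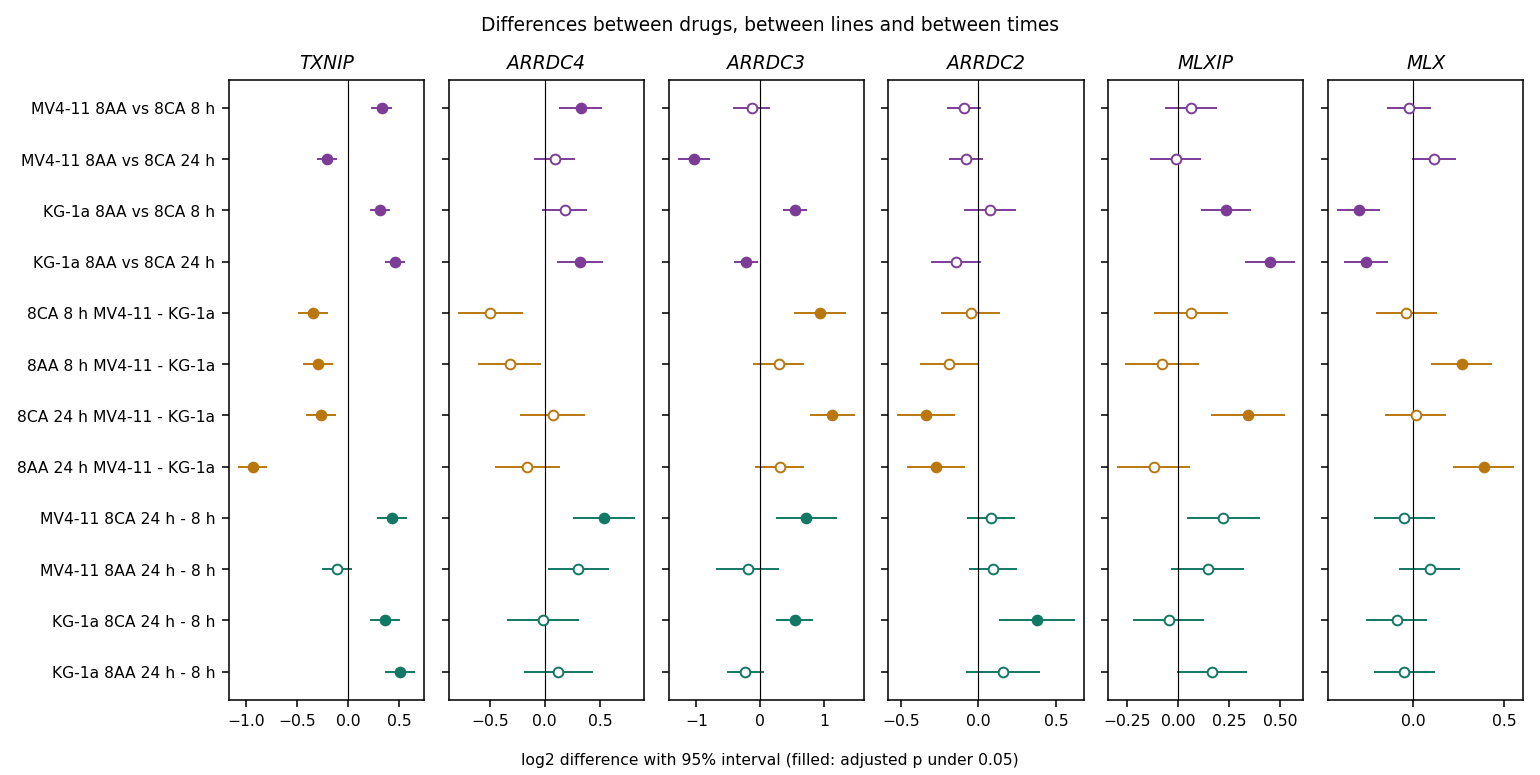
log2 difference with its 95% interval for each member (x axes, which differ in range between panels): 8AA against 8CA (purple), response of MV4-11 minus that of KG-1a (orange) and response at 24 h minus that at 8 h (green). Filled points have an adjusted p under 0.05. TXNIP lies below 0 in all 4 differences between the lines, from -0.26 to -0.93.

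On the log2 scale the response of TXNIP to treatment was smaller in MV4-11 than in KG-1a in each of the 4 combinations of drug and time. Its untreated level was higher in MV4-11. In CPM its rise was larger in MV4-11 with both drugs at 8 h and with 8CA at 24 h. With 8AA at 24 h the rise in CPM was about the same in both lines. At 8 h its mean CPM in MV4-11 was 168 untreated, 242 after 8CA and 307 after 8AA. In KG-1a it was then 55.5, 101 and 125. At 24 h its mean CPM in MV4-11 was 191 untreated, 372 after 8CA and 322 after 8AA. In KG-1a it was 60.7, 142 and 195. The difference of the log2 fold changes, MV4-11 minus KG-1a, was taken from 1 model over the 24 libraries and 14055 genes. It was -0.34 ± 0.072 after 8CA at 8 h (adjusted p = 0.0103 in edgeR), -0.30 ± 0.071 after 8AA at 8 h (adjusted p = 0.0064), -0.26 ± 0.070 after 8CA at 24 h (adjusted p = 0.013) and -0.93 ± 0.070 after 8AA at 24 h (adjusted p = 2.39e-10). In these 4 tests 2 members (1.25% of all genes), 2 (11.3%), 4 (11.3%) and 3 (22.4%) were called. The TXNIP difference after 8AA held under every alternative at both times, and at 24 h it was -0.90 or -1.04 without library A or B of KG-1a after 8AA. With 8CA it was lost at each time when 1 of 4 of the 8 libraries was left out, at -0.28 to -0.33 (adjusted p = 0.0629 to 0.0862) at 8 h and -0.23 to -0.26 (adjusted p = 0.0524 to 0.0902) at 24 h. At 8 h these were the A libraries of all 4 groups, and at 24 h they were MV4-11 untreated B, MV4-11 8CA A, KG-1a untreated A and KG-1a 8CA B.

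On the log2 scale ARRDC3 went the other way, with a larger rise in MV4-11 after 8CA, by 0.93 ± 0.20 at 8 h (adjusted p = 0.0106 in edgeR) and 1.13 ± 0.17 at 24 h (adjusted p = 5.36e-05). Its untreated level in MV4-11 was low (44 to 64 counts). In CPM its mean went from 2.39 to 6.14 in MV4-11 and from 15.1 to 20.5 in KG-1a at 8 h. At 24 h it went from 2.91 to 12.5 and from 14.4 to 28.3. Its 8 h call was lost without MV4-11 untreated B, MV4-11 8CA A, KG-1a untreated B or KG-1a 8CA B, at 0.76 to 0.84 and adjusted p = 0.0524 to 0.142. With 8AA its differences of 0.28 ± 0.20 and 0.30 ± 0.19 were not called, and without library A or B of KG-1a after 8AA the latter was 0.27 or 0.26. MLX fell less in MV4-11 after 8AA, by 0.27 ± 0.081 at 8 h (adjusted p = 0.0327) and 0.39 ± 0.082 at 24 h (adjusted p = 0.000837), and 0.40 or 0.30 at 24 h without library A or B of KG-1a after 8AA. The MLX call at 8 h was lost under 11 of 16 alternatives, including 6 of the 8 libraries left out, at 0.19 to 0.28 and adjusted p = 0.0641 to 0.213. The libraries were both untreated MV4-11 ones, MV4-11 8AA B, KG-1a untreated A and both KG-1a 8AA ones.

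At 24 h the ARRDC2 response was smaller in MV4-11, by -0.34 ± 0.090 after 8CA (adjusted p = 0.0132 in edgeR) and -0.27 ± 0.091 after 8AA (adjusted p = 0.0303). The former was lost without MV4-11 untreated A, MV4-11 8CA A, KG-1a untreated A or KG-1a 8CA A, at -0.26 to -0.31 and adjusted p = 0.0546 to 0.141. The latter was lost without MV4-11 untreated A, either MV4-11 8AA library, KG-1a untreated A or KG-1a 8AA A, at -0.19 to -0.27 and adjusted p = 0.0634 to 0.224, and in a fit of the 12 libraries of the time point (adjusted p = 0.066). The MLXIP response to 8CA at 24 h was larger in MV4-11 by 0.34 ± 0.088 (adjusted p = 0.01), and 0.27 (adjusted p = 0.0895), 0.32 (adjusted p = 0.0543) and 0.29 (adjusted p = 0.0845) without MV4-11 untreated B, KG-1a untreated B and KG-1a 8CA A. ARRDC4 was called in none of the 4, with the largest difference at -0.49 ± 0.14 (adjusted p = 0.0958) for 8CA at 8 h.

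For 3 members in each line the rise after 8CA was larger at 24 h than at 8 h. In MV4-11, 3 members had a larger rise at 24 h (16.9% of all genes were called), namely TXNIP by 0.43 ± 0.069 (adjusted p = 0.000262 in edgeR), ARRDC4 by 0.54 ± 0.13 (adjusted p = 0.00856) and ARRDC3 by 0.72 ± 0.23 (adjusted p = 0.0356). In KG-1a 3 did (24.1%), TXNIP by 0.36 ± 0.070 (adjusted p = 0.00138), ARRDC3 by 0.54 ± 0.14 (adjusted p = 0.00949) and ARRDC2 by 0.38 ± 0.12 (adjusted p = 0.0245). The ARRDC4 difference in MV4-11 includes a lower untreated level at 24 h (-0.31 ± 0.098, not called). Its mean CPM there was 15.7 untreated and 16.0 after 8CA at 8 h, and 12.7 and 18.9 at 24 h. With 8AA, 1 member had a larger rise at 24 h in KG-1a (18.7%), which was TXNIP by 0.51 ± 0.069 (adjusted p = 0.000131), and 0.47 or 0.54 without 8AA library A or B of 24 h. The ARRDC2 difference between times after 8AA in KG-1a was 0.16 ± 0.11 and was not called (adjusted p = 0.373). In MV4-11 after 8AA 0 of 6 were called (5.42%) by edgeR and 0 by DESeq2. There ARRDC4, at 0.30 ± 0.13, alone had an unadjusted p under 0.05 in edgeR (0.0333), and TXNIP was at -0.11 (95% interval -0.25 to 0.04).

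The TXNIP differences between times held under all 16 alternatives each. The ARRDC4 difference in MV4-11 was at adjusted p = 0.0511 in edgeR (0.45) without untreated library A of 24 h. The ARRDC3 difference in MV4-11 was lost without untreated A or 8CA B of 8 h, either untreated library of 24 h or 8CA A of 24 h, at 0.54 to 0.82 and adjusted p = 0.0505 to 0.22, and in DESeq2 (adjusted p = 0.127). That of ARRDC3 in KG-1a was 0.36 (adjusted p = 0.0863) without untreated B of 8 h and 0.46 (adjusted p = 0.0531) without 8CA B of 8 h. The ARRDC2 difference in KG-1a was lost without untreated A of either time, 8CA A or B of 8 h, or 8CA A of 24 h, at 0.28 to 0.41 and adjusted p = 0.0506 to 0.15, and in DESeq2 (adjusted p = 0.0867). In KG-1a after 8AA, MLXIP was called as well without 8AA library A of 24 h (0.22, adjusted p = 0.0168).

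The members were also set against TXNIP over all 24 libraries, on log2 CPM minus the gene's mean in its line. The 9885 other genes with at least 1 log2 CPM in each line were ordered by Pearson's r, given as a description because the libraries share groups and fall into treated and untreated sets. ARRDC4 was at place 215 (r = 0.84), ARRDC3 at place 539 (r = 0.77), ARRDC2 at 2447 (r = 0.46), MLXIP at 2995 (r = 0.36) and MLX at 9824 (r = -0.89). MLX was near the far end of the order. Within a line, over the 12 libraries of MV4-11 and of KG-1a, r with TXNIP was 0.78 and 0.88 for ARRDC4, 0.92 and 0.85 for ARRDC3, -0.28 and 0.77 for ARRDC2, 0.59 and 0.26 for MLXIP and -0.78 and -0.93 for MLX. ARRDC3 had a higher r than ARRDC4 within MV4-11 and a lower one in KG-1a and over all libraries. Of all these genes 41 had r of at least 0.9 and 404 at least 0.8. The 5 most like TXNIP were KLHL24 (0.95), which encodes a ubiquitin ligase adaptor, BMF (0.95), a pro-apoptotic BH3-only factor, TBC1D17 (0.94), a Rab GTPase-activating protein, GOLGB1 (0.94), the Golgi protein giantin, and GATAD2B (0.93), a subunit of the NuRD repressor. The 3 most opposed were MTERF3 (-0.93), of the mitochondrial transcription termination factor family, DSCC1 (-0.93), part of a clamp loader for replication, and EEF2KMT (-0.94), which methylates elongation factor 2. KLHL24 rose in all 8 comparisons, from 0.51 ± 0.075 in MV4-11 after 8CA at 8 h to 1.79 ± 0.099 in KG-1a after 8AA at 24 h. BMF rose in all 8 too, from 0.30 ± 0.066 to 1.61 ± 0.066, both in KG-1a, after 8CA at 8 h and 8AA at 24 h. Without 8AA library A or B of KG-1a at 24 h, KLHL24 was at 1.96 or 1.60 there and BMF at 1.55 or 1.66.

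**Figure D4:**
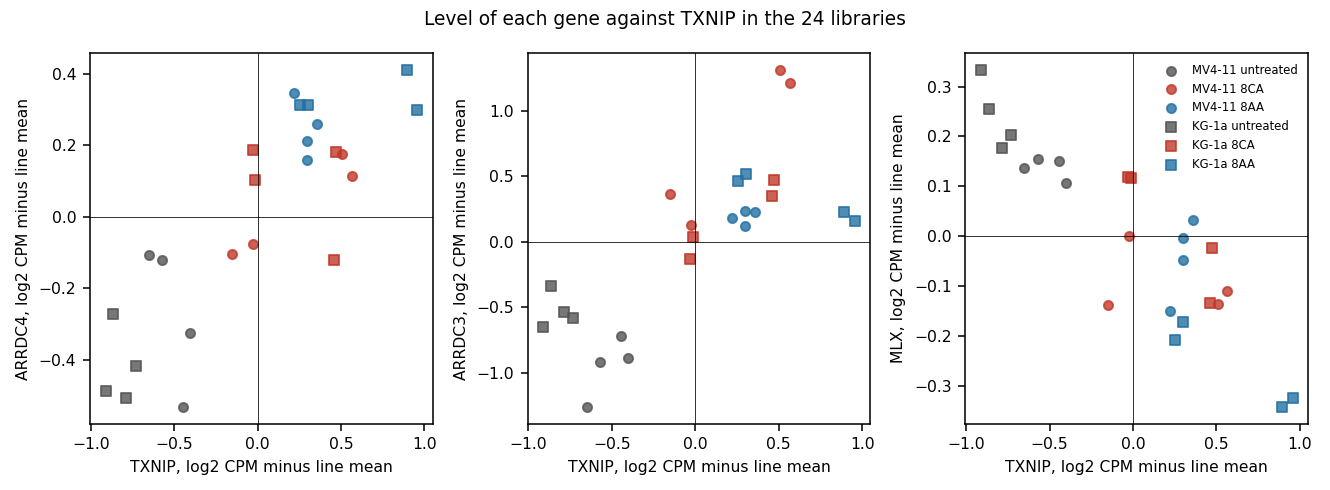
log2 CPM minus the mean of the cell line for ARRDC4, ARRDC3 and MLX (y axes) against TXNIP (x axes) in the 24 libraries, by line (shape) and treatment (color). Untreated libraries lie at the left for TXNIP in both lines, low for ARRDC4 and ARRDC3 and high for MLX.

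Genes around the members were taken by lists, with each list's median log2 fold change set beside that of all genes tested, which was between -0.00468 and 0.0134. Among all genes, in MV4-11, 5.03% rose and 6.2% fell after 8CA at 8 h, 13.9% and 15.7% after 8AA at 8 h, 21.2% and 22.8% after 8CA at 24 h and 14.3% and 15.5% after 8AA at 24 h. In KG-1a these shares were 0.81% and 0.244%, 16.7% and 18%, 23.5% and 24%, and 25.3% and 26.5%, in the same order. For glucose uptake and hexose phosphate supply, the step that feeds MondoA, 0 to 9 of 9 or 10 tested genes fell and at most 1 rose. Most fell in MV4-11 after 8CA at 24 h (9 of 10, list median -0.49) and in KG-1a after 8AA at 24 h (8 of 9, -0.55), and none in KG-1a after 8CA at 8 h (-0.10). Without 8AA library A or B of KG-1a at 24 h, 8 or 6 of the 9 fell there, with medians of -0.67 or -0.45. SLC2A1, the GLUT1 transporter that TXNIP restrains, fell in 7 comparisons, by -0.27 to -0.74 log2. HK2, a hexokinase that makes glucose-6-phosphate, fell in 7 comparisons, by -0.19 to -0.85. Both were not called in KG-1a after 8CA at 8 h, at -0.18 ± 0.052 for SLC2A1 and -0.13 ± 0.048 for HK2.

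Of other genes known to have carbohydrate response elements, more fell than rose in 7 comparisons. Of 9 or 10 tested, 5 to 8 fell in 7 comparisons and 0 to 4 rose, with list medians of -0.17 to -0.57, and none was called in KG-1a after 8CA at 8 h. The lipid synthesis genes ACACA, ACLY, FASN and SCD fell in the other 7 comparisons, FASN by -0.29 to -0.89 and SCD by -0.32 to -1.20. Some genes of the list went the other way. KLF10 was called higher in 4 of 8 comparisons and lower in 0, with log2 fold changes of 0.00425 to 0.51. GPD1 was called higher in 2 of the 4 comparisons in which it was tested and lower in 0 (-0.22 to 3.26). BHLHE40 was called higher in 3 and lower in 3. RGS16, a regulator of G protein signalling, fell in 6 and rose in KG-1a after 8CA at 24 h (0.79 ± 0.077), against -1.40 ± 0.095 after 8AA at that time. In that comparison 8 of 10 genes fell, also without 8AA library A or B, with list medians of -0.54, -0.61 and -0.47.

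Of the MondoA and MAX network partners, 0 to 4 of 8 or 9 rose and 0 to 2 fell, with medians of -0.06 to 0.16. MXD4, which encodes a repressor that competes with MYC for MAX, rose in 6 comparisons, most in KG-1a after 8AA (1.30 ± 0.061 at 8 h and 1.39 ± 0.060 at 24 h, the latter 1.32 or 1.45 without 8AA library A or B). It was not called in KG-1a after 8CA (0.03 ± 0.066 and 0.05 ± 0.064). In the thioredoxin system 0 to 5 of 9 or 10 genes fell and 0 or 1 rose, with medians of -0.26 to 0.03. TXNRD1, the cytosolic thioredoxin reductase, fell in 6 comparisons by -0.15 to -0.51, and KPNA2, an importin that carries TXNIP into the nucleus, fell in 6 by -0.13 to -0.67. KPNA2 was not called in KG-1a after 8AA at 24 h and fell there without 8AA library A (-0.17). Of 10 other arrestins and arrestin-binding ligases, 0 to 3 rose and 0 to 3 fell, with medians of -0.12 to -0.00333. ARRDC5, tested in MV4-11 only, rose at 24 h after 8CA (1.24 ± 0.43) and 8AA (1.47 ± 0.43). At 8 h it was not called, at 1.48 ± 0.61 after 8CA and 1.23 ± 0.63 after 8AA (adjusted p = 0.126 and 0.15 in edgeR). The SE was wide at both times, and the values give no sign that its rise was confined to 24 h. NEDD4L, tested in KG-1a only, was called in none. In KG-1a after 8AA at 24 h, leaving out 8AA library A or B moved the number of genes that rose or fell in these 3 lists by at most 1.

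**Figure D5:**
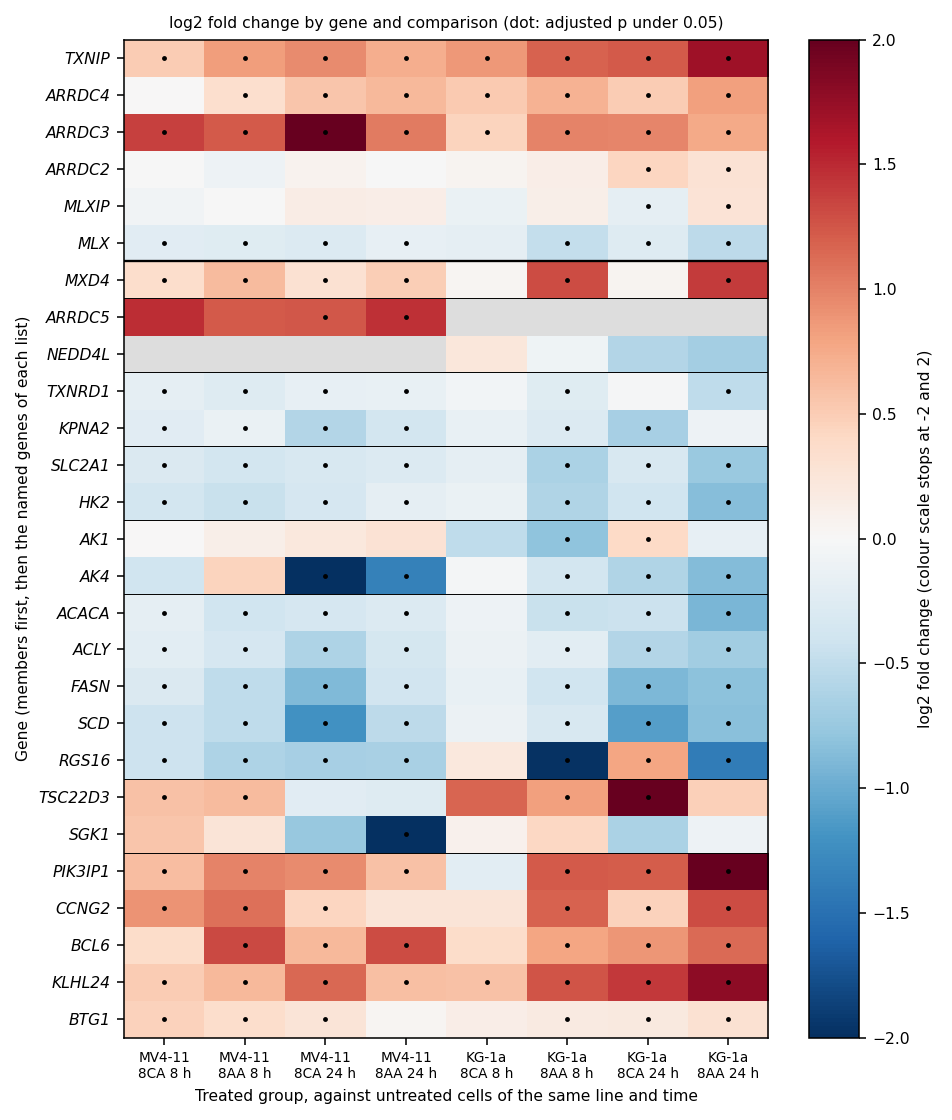
log2 fold change (color scale, which stops at -2 and 2) in the 8 comparisons with untreated cells (columns). Rows are the members and the genes named by rule from each list, with lists separated by lines. Dots mark an adjusted p under 0.05 and gray marks genes not tested. SLC2A1, HK2, ACACA, ACLY, FASN and SCD are blue in every column, and TXNIP and KLHL24 red.

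AMPK and the adenylate kinases sense and balance AMP and ATP. Of 11 of their genes tested, 0 to 4 rose and 0 to 4 fell, with medians of -0.16 to 0.10. Most were called in KG-1a at 24 h, with 4 higher and 4 lower after 8CA and 3 higher and 4 lower after 8AA, where 47.5% and 51.8% of all genes were called. Without 8AA library A or B of that group the latter counts were 3 and 4, or 4 and 5. AK4, a mitochondrial adenylate kinase, fell in MV4-11 at 24 h after 8CA (-3.21 ± 0.45) and 8AA (-1.36 ± 0.35), and in KG-1a in 3 comparisons by -0.37 to -0.86. The SE in these KG-1a comparisons was 0.048 to 0.050, so the size of the AK4 fall in MV4-11 is much less certain. AK1, the cytosolic form, fell in KG-1a after 8AA at 8 h (-0.81 ± 0.13) and rose there after 8CA at 24 h (0.39 ± 0.12). Of the glucocorticoid receptor and its targets, 0 to 6 of 8 or 9 rose and 0 to 3 fell, with medians of -0.21 to 0.35. TSC22D3, which encodes the anti-inflammatory factor GILZ, rose in 4 comparisons, most after 8CA in KG-1a at 24 h (3.15 ± 0.19), and SGK1, a serum-induced kinase, fell in MV4-11 after 8AA at 24 h (-2.08 ± 0.63). In KG-1a after 8AA at 24 h TSC22D3 was not called (0.47 ± 0.26), was at 0.78 and called without 8AA library B, and was at -0.00176 without A.

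Of the FOXO factors and genes that rise when growth factors are withdrawn, more rose than fell in every comparison. Of 11 or 12 tested, 10 rose in MV4-11 after 8AA at 8 h and in KG-1a after 8AA at both times, 9 in KG-1a after 8CA at 24 h, 4 to 7 in the other MV4-11 comparisons and 1 in KG-1a after 8CA at 8 h. At most 1 fell, and the list medians were 0.07 to 0.82. The 10 of 11 in KG-1a after 8AA at 24 h compare with 25.3% of all genes higher, the 9 of 11 after 8CA with 23.5% and the 10 of 12 in MV4-11 after 8AA at 8 h with 13.9%. The list was written with earlier results of these data known, so these shares are a description and no independent support. Without 8AA library A or B of KG-1a at 24 h, 10 of 11 rose as well, with medians of 0.91 or 0.72. PIK3IP1, an inhibitor of PI3 kinase, rose in 7 comparisons by 0.58 to 2.27, CCNG2, a cyclin linked to cell cycle exit, in 6 by 0.43 to 1.30, and BCL6, a transcriptional repressor, in 6 by 0.65 to 1.31. BTG1, an antiproliferative factor, rose in 6 by 0.18 to 0.46. KLHL24, the gene most like TXNIP above, is also of this list and rose in every comparison. TXNIP is itself among the genes known to rise with FOXO factors, and it is not counted in this list.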

How the data were processed

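RNA of 24 libraries of 2 AML cell lines was sequenced and the authors deposited a table of unnormalized read counts per gene and library, with each gene's position and exon length. The submitters' processing notes name Trimmomatic, STAR 2.6.0, HTSeq 0.11.1, edgeR and the builds hg19 and hg38, with no order. For the strand setting and the annotation, nothing is given in the sources used here, and coordinates of the table were not mixed with GRCh38.p14, since 802 of 21956 genes matched by symbol started within 1 kb. Groups were taken from the labels, the hours of untreated libraries from the titles alone, and 0 columns were left unmatched.

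Genes were filtered with filterByExpr (minimum count 10), library sizes were corrected by TMM factors, and edgeR 4.0.16 (R 4.3.3, limma 3.58.1) was used for a quasi-likelihood test with 1 coefficient per group. Fits held 12800 genes for MV4-11, 12711 for KG-1a and 14055 for both lines. The test was two-sided, Benjamini-Hochberg adjustment covered every gene of the fit (threshold 0.05), and steps were tested on simulated data. Members and lists were chosen with earlier results of these data known, the lists from general knowledge. Named from each list are genes called in 1 direction in at least 6 of 8 comparisons or, if none, the 2 with the largest mean absolute log2 fold change, and the 5 genes most and 3 least like TXNIP. KLF10, GPD1 and BHLHE40 were named outside this rule, after seeing the data. AK6 of the AMPK list was not in the table. Likeness used log2 CPM with a prior count of 2. Alternatives were other scalings and filters, DESeq2 1.42.0, other sets of libraries, the replicate letter as a block and leaving out each library. For the comparisons among untreated groups, and for the gene lists in KG-1a with 8AA at 24 h, these were added after seeing the data. Depth, 18633963 to 24520078 counts, limits ARRDC3 in untreated MV4-11 (44 to 64 counts). Figures used matplotlib 3.10.9.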

Additional observations from a re-analysis of the deposited data

Results flagged for a closer look

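Differences between the times or the lines that passed edgeR's quasi-likelihood test for a difference of log2 fold changes were singled out, 18 in all, and no group is large enough for a search for a library far from the others. Between 24 h and 8 h in MV4-11 with 8CA they were TXNIP (0.4278), ARRDC4 (0.5382) and ARRDC3 (0.7164). In KG-1a with 8CA they were TXNIP (0.3591), ARRDC3 (0.5354) and ARRDC2 (0.3783), and with 8AA TXNIP (0.5099).

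Between MV4-11 and KG-1a with 8CA at 8 h they were TXNIP (-0.3439) and ARRDC3 (0.934), and with 8AA at 8 h TXNIP (-0.2962) and MLX (0.266). At 24 h with 8CA they were TXNIP (-0.2643), ARRDC3 (1.126), ARRDC2 (-0.3385) and MLXIP (0.3431). At 24 h with 8AA they were TXNIP (-0.9331), ARRDC2 (-0.2729) and MLX (0.3863).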

How the results depend on the processing

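Over all comparisons of the 6 members, 1805 alternative values kept direction and side of the threshold, 104 lost a call, 22 gained one and 48 changed sign, none of these 48 for a called value. Leaving out a library accounts for most lost calls, and an arm with 1 library was assumed to vary like the other groups. The cause of the changes below was not tested. With library size only, ARRDC2 in MV4-11 with 8CA at 8 h became 0.02133, MLXIP with 8AA at 8 h 0.03182, ARRDC2 with 8AA at 24 h 0.04386, and the time difference of MLX with 8AA in KG-1a 0.009638. Upper-quartile scaling gave 0.01504, 0.03392, 0.03057 and 0.01381 for the same ARRDC2, MLXIP, ARRDC2 and MLX values in that order, 0.02671 for the time difference of ARRDC4 with 8CA in KG-1a and -0.008876 for the line difference of MLX with 8CA at 24 h, which was -0.01038 with no filter. With at least 10 counts in every library MLXIP with 8AA at 8 h was 0.001537 and ARRDC2 with 8AA at 24 h 0.003482. In a fit of all 24 libraries ARRDC2 with 8CA at 8 h was 0.001513, MLXIP with 8AA at 8 h 0.01939 and ARRDC2 with 8AA at 24 h 0.01322, and the last was 0.0001217 in a fit of its time point.

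Leaving out a library in MV4-11 gave ranges across 0 for ARRDC4 (-0.005366 to 0.0128), ARRDC2 (-0.04595 to 0.009121) and MLXIP (-0.1729 to 0.01364) with 8CA at 8 h, MLXIP with 8AA at 8 h (-0.1056 to 0.08083) and ARRDC2 with 8AA at 24 h (-0.04041 to 0.01355). Between the drugs these were ARRDC3 (-0.2414 to 0.006573) and MLX (-0.08465 to 0.04493) at 8 h and MLXIP at 24 h (-0.04314 to 0.002737). Between times with 8CA they were MLX in MV4-11 (-0.1003 to 0.02927) and ARRDC4 (-0.175 to 0.1287) and MLXIP (-0.1291 to 0.01223) in KG-1a. Between lines they were MLXIP (-0.02894 to 0.165) and MLX (-0.1078 to 0.03213) with 8CA at 8 h, MLXIP with 8AA at 8 h (-0.172 to 0.02178), and ARRDC4 (-0.09839 to 0.2294) and MLX (-0.06266 to 0.07299) with 8CA at 24 h. Between untreated cells of 24 h and 8 h they were MLXIP (-0.07147 to 0.1152) and MLX (-0.04577 to 0.002251) in MV4-11 and ARRDC4 (-0.1701 to 0.0384), ARRDC3 (-0.1956 to 0.1102), ARRDC2 (-0.0396 to 0.1253) and MLXIP (-0.118 to 0.0105) in KG-1a.

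Leaving out a library also moved the number of members called, to 1 to 2 in KG-1a with 8CA at 8 h, 1 to 2 between the drugs in MV4-11 at 8 h, 3 to 5 between them in KG-1a at 24 h, 1 to 3 between times with 8CA and 1 to 2 with 8AA in KG-1a, 0 to 2 between lines with 8CA and 1 to 2 with 8AA at 8 h, 2 to 4 with 8CA at 24 h, and 0 to 2 between untreated MV4-11 cells of both times. Between lines with 8AA at 8 h 1 member was called with RLE scaling, no filter, at least 10 counts in every library, DESeq2 or the 12 libraries of the time point, and between drugs in MV4-11 at 8 h 1 was called by DESeq2 or in the 6 libraries of the time point.

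The labels do not say whether the letters A and B pair libraries of different groups, and pairing itself was not tested. The correlations given next only describe how alike same-lettered libraries were. Deviations from the group means of same-lettered libraries correlated at -0.0707 to 0.113 in MV4-11 and -0.0777 to 0.122 in KG-1a, over 15 pairs of groups each, with 2 and 1 above 0.1. With the replicate block MLXIP in MV4-11 with 8CA at 24 h was called (0.1482, adjusted p = 0.0366 in edgeR), as was ARRDC4 between untreated MV4-11 cells of 24 h and 8 h (-0.3113, adjusted p = 0.0378), and no other member's call changed. Over all genes, the 134 calls in KG-1a with 8CA at 8 h became 272 with no filter, 228 with the block, 205 with all 24 libraries and 611 with the 6 of the time point. In MV4-11 1437 calls with 8CA at 8 h became 895 with DESeq2 and 804 with the 6 libraries, and between drugs 953 at 8 h became 534 with DESeq2, 496 with the 6 libraries and 1496 with the block, and 2794 at 24 h became 1838 with DESeq2. Between times with 8AA, 694 in MV4-11 became 390 with DESeq2 and 1285 with the block, and 2382 in KG-1a became 1582 with DESeq2. Between untreated cells of 24 h and 8 h, 824 in MV4-11 became 473 with DESeq2 and 1463 with the block, and 603 in KG-1a became 936 with no filter. Leaving out 1 library moved these counts further in several comparisons. The untreated ones became 194 to 384 in MV4-11 and 75 to 243 in KG-1a, and those with 8CA at 8 h 654 to 851 in MV4-11 and 29 to 36 in KG-1a. With 8AA 4416 at 8 h in KG-1a became 2877 to 3306, and 3814 at 24 h in MV4-11 became 2386 to 2937. Between drugs 953 and 2794 in MV4-11 became 454 to 588 and 1318 to 1976, and 3889 at 8 h in KG-1a became 2285 to 2422. Between times 2169 and 694 in MV4-11 with 8CA and 8AA became 1337 to 1927 and 201 to 587, and 2382 in KG-1a with 8AA became 1419 to 4005, the highest without its 8AA library A of 24 h. Between lines 176 and 1585 at 8 h with 8CA and 8AA became 88 to 119 and 1008 to 1320, and 1583 at 24 h with 8CA became 1051 to 1178. In the other comparisons they moved by less than 1.5 times. Scaling by library size alone moved the median log2 fold change of all genes from 0.0134 to 0.108 in KG-1a with 8AA at 24 h and from 0.000102 to -0.109 between the untreated lines at 24 h, where MLXIP was then called (-0.1978). Depth limits ARRDC3 in untreated MV4-11 most, with 44 to 64 counts per library.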
